A study of Mus musculus with 4 samples.

Results

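Cytotoxic lymphocytes of the brain were described through 10 genes, Gzma, Gzmb, Gzmk, Prf1, Nkg7, Ifng, Ccl5, Fasl, Klrd1 and Klrg1, which were found by their symbols among the 32285 genes of each expression matrix. Their UMIs (unique molecular identifiers, each standing for 1 captured RNA molecule) were counted in CD8 T cells, NK (natural killer) cells and the other immune cells of 4 single-cell libraries, 1 per group. The old tumour and old sham groups were mice aged 93 weeks, and the young tumour and young sham groups were mice aged 8 weeks. The design text names C57BL/6 for all of them, while the strain field of the labels ends in another digit from sample to sample and was not used. Tumour groups had received an intracranial injection of 1000 CT2A-GFP-luc cells, which come from a mouse glioma and carry a fluorescent and a luciferase reporter. Sham groups had received phosphate-buffered saline. After 2 weeks, the hemisphere opposite the injection was dissociated with the Adult Brain Dissociation kit, so the injected side itself was not sampled. All libraries were made with 10x Genomics 3' v3 chemistry, and the number of mice behind each library is not given. Without a second library per group there was no test and no replicate error. Each interval below is a 95% interval for counting error only.

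Cytotoxic T and NK cells kill by releasing granules in which perforin opens the target membrane to granzymes, a family of serine proteases. They also signal death through Fas ligand, and they secrete interferon gamma and chemokines such as CCL5. In the brain such cells are sparse in healthy tissue, and part of the CD8 T cells found there are long-lived resident memory cells. Granzymes A and B are the granzymes best studied in killing, and granzyme K is known as a marker of CD8 T cells that accumulate in aged mouse tissues.

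Gzma, the gene of granzyme A, and Gzmk, the gene of granzyme K, lie side by side on chromosome 13 (GRCm38, GENCODE release 21). Gzma (ENSMUSG00000023132) spans 113093825 to 113100981 and Gzmk (ENSMUSG00000042385) spans 113171608 to 113225908, both on the minus strand, with 70626 bases between them. Gzmb (ENSMUSG00000015437), the gene of granzyme B, lies on the minus strand of chromosome 14 from 56258838 to 56262260. These neighbours and this relative were distributed differently over the cells, so their promoters are shown. RefSeq promoters (GRCm38.p6, 250 bases before and 50 after the start) were found for 7 of the 10 genes. Each is printed 5' to 3' on the strand of its gene, at chr13:113100932-113101231 for Gzma, chr13:113180916-113181215 for Gzmk and chr14:56262285-56262584 for Gzmb. The RefSeq start of Gzmk lies inside the longer GENCODE gene.
Gzma: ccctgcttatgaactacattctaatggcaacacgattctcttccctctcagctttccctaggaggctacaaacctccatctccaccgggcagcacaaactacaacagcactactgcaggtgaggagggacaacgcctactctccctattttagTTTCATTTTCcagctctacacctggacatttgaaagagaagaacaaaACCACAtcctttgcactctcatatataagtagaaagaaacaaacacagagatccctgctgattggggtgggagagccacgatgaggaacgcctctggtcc
Gzmk: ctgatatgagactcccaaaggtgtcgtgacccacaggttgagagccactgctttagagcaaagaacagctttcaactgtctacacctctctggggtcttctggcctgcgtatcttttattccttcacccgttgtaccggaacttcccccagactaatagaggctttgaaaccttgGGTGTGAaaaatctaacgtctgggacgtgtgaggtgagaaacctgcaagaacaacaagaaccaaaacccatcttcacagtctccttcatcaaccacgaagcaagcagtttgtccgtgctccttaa
Gzmb: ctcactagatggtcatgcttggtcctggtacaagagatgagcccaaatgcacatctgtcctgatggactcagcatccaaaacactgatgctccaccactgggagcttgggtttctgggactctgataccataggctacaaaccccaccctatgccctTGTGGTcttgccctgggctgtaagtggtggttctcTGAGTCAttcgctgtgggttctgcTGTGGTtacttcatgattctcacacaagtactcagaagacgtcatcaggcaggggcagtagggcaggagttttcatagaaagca
Capitals mark matches to 4 binding motifs searched on both strands, which do not overlap each other here. The T-box site GGTGTGA, read by T-bet and eomesodermin, was in the Gzmk promoter at position -75 from the start site. It was held by 2 of the 7 promoters and by 3.98% of all 32851 mouse promoters. The RUNX site TGTGGT stood at -50 (as its reverse complement) in Gzma and at -93 and -34 in Gzmb, and was held by 4 of the 7 promoters and 16.8% of all. The AP-1 site TGANTCA stood at -58 in Gzmb, and was held by 1 of the 7 promoters and 7.81% of all. The interferon-stimulated element core, searched as GAAA and GAAA spaced by 2 bases, stood reversed at -97 in Gzma, and was held by 1 of the 7 promoters and 3.44% of all. A match is only a string of letters, and no binding was measured.

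The other genes lie on other chromosomes or far apart. Prf1 (perforin) is on chromosome 10 from 61297833 to 61304680 and Ifng (interferon gamma) on the same chromosome from 118441046 to 118445892. Nkg7, a membrane protein of cytotoxic granules, is on chromosome 7 from 43437073 to 43438249. Ccl5 is on chromosome 11 from 83525778 to 83530518, and Fasl (Fas ligand) is on chromosome 1 from 161780689 to 161788495. Klrd1 (CD94) and Klrg1, both lectin-like receptors, are on chromosome 6, from 129591782 to 129598775 and from 122270596 to 122282882.

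After filters and doublet removal 9829, 9529, 10461 and 10571 cells remained in old tumour, old sham, young tumour and young sham, with median depths of 3773 to 4858 UMIs. CD8 T cells were taken as cells with at least 2 UMIs of Cd3d, Cd3e and Cd3g together and at least 1 of Cd8a and Cd8b1. NK cells had fewer than 2 CD3 UMIs and at least 2 of Ncr1, Klrb1c and Klre1. None of the 10 genes was used in a gate. All 8 T cell check markers that no gate used (Trac, Lck and others) were detected in the CD8 T cells of each library, at 4727 to 6285 CPM in sum, where CPM is UMIs per 1000000 UMIs of the class. NK check markers summed to 140 to 288 CPM there where Klra8 was at 0 in each library. In NK cells the NK check markers summed to 552, 647, 2108 and 826 CPM in old tumour, old sham, young tumour and young sham. The T cell check markers summed to 1104, 3113, 2837 and 1887 CPM there, with Cd5 at 0 in each library. Pairs of libraries shared 27 to 53 cell barcodes, at most 2 of them on CD8 T cells of a library.

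CD8 T cells numbered 109 in old tumour (1.11% of its cells), 75 in old sham (0.787%), 161 in young tumour (1.54%) and 29 in young sham (0.274%). Their share was 1.41 times as high in old tumour as in old sham (1.04 to 1.92) and 5.61 times as high in young tumour as in young sham (3.76 to 8.64). Between the sham libraries it was 2.87 times as high in old as in young (1.85 to 4.57), and between the tumour libraries it was 0.721 times as high in old as in young (0.560 to 0.925). NK cells numbered 8 in old tumour, 7 in old sham, 54 in young tumour and 5 in young sham. The young tumour library thus had the most cells of both kinds, and values from 29 or fewer cells below are the least precise.

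Gzmk was higher in CD8 T cells of old than of young mice, with and without tumour. It had 140 UMIs in old tumour, 94 in old sham, 70 in young tumour and 11 in young sham CD8 T cells. At least 1 UMI was found in 55.0% (45.2 to 64.6) of them in old tumour, 62.7% (50.7 to 73.6) in old sham, 18.6% (12.9 to 25.5) in young tumour and 24.1% (10.3 to 43.5) in young sham. At full depth the intervals of both old libraries lay above those of both young ones. Its level was 4.14 times as high in old tumour as in young tumour (3.08 to 5.59) and 4.2 times as high in old sham as in young sham (2.24 to 8.70). Old tumour stood at 0.825 of old sham (0.631 to 1.08) and young tumour at 0.838 of young sham (0.441 to 1.76), so neither tumour contrast was off 1. With each cell thinned to 1000 UMIs, the share of CD8 T cells with Gzmk was 20.2% (13.1 to 28.9) in old tumour and 32.4% (22.0 to 44.3) in old sham. It was 10.1% (5.86 to 15.8) in young tumour and 3.45% (1 cell, 0.0873 to 17.8) in young sham. The old sham interval still lay above both young ones, but the old tumour interval overlapped both. The thinned ratio of old to young tumour was 1.93. CD8 T cells held 77.8%, 89.5%, 76.9% and 100% of all Gzmk UMIs of old tumour, old sham, young tumour and young sham.

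Gzmb was detected in CD8 T cells of 3 libraries and not in those of young sham. CD8 T cells had 133 UMIs in old tumour, 50 in old sham, 642 in young tumour and 0 in young sham. The share with a UMI was 30.3% (21.8 to 39.8) in old tumour, 32.0% (21.7 to 43.8) in old sham and 44.1% (36.3 to 52.1) in young tumour. In young sham it was 0 of 29 cells, and 3 counts would allow up to 10.3% of cells with a UMI (Clopper-Pearson limit 11.9%). Against 3 counts in place of that 0, the level was at least 28.2-fold higher in young tumour and at least 8.19-fold higher in old sham than in young sham. Old tumour stood at 1.47 times old sham (1.06 to 2.08), just short of 1.5, and at 0.428 of young tumour (0.353 to 0.517). A single young tumour cell held 239 of the 642 UMIs there. Without the highest cell of each library the ratio of old to young tumour was 0.575, as the mean over cells it was 0.599, and thinned to 1000 UMIs per cell it was 0.729.

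Gzma was rare in CD8 T cells and concentrated in few of them. It had 125 UMIs in 9 cells of old tumour, 1 UMI in old sham, 51 UMIs in 9 cells of young tumour and 0 UMIs in young sham. The 5 highest cells held 87.2% of these UMIs in old tumour and 92.2% in young tumour. The share of positive cells was 8.26% (3.85 to 15.1) in old tumour, 1.33% in old sham, 5.59% (2.59 to 10.3) in young tumour and 0 of 29 in young sham. The level was 69.3 times as high in old tumour as in old sham, with an interval of 12.2 to 2758 that shows how little the single UMI fixes. Without the highest cell of each library old sham had 0 UMIs, and old tumour was at least 15.5-fold higher against 3 counts. Old tumour also stood at 5.07 times young tumour (3.63 to 7.16). Young tumour was at least 2.24-fold higher than young sham, and at least 1.25-fold higher without its highest cell.

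**Figure D1:**
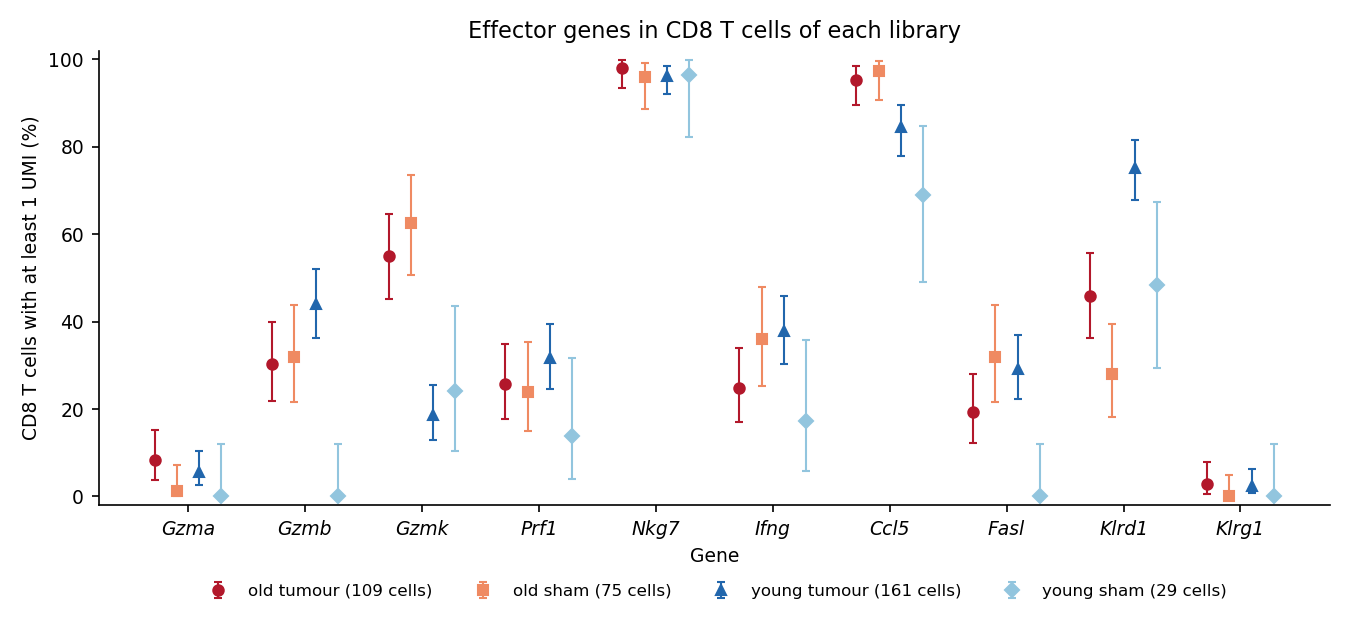
Percent of CD8 T cells with at least 1 UMI of each of the 10 genes, by library (109 cells in old tumour, 75 in old sham, 161 in young tumour and 29 in young sham), with points for the share and bars for the 95% Clopper-Pearson interval. Gzmk stands at 55.0% and 62.7% in the old libraries and at 18.6% and 24.1% in the young ones, and Klrd1 is highest in young tumour at 75.2%.

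Prf1, which encodes the pore-forming perforin, had 34 UMIs in old tumour, 20 in old sham, 142 in young tumour and 6 in young sham CD8 T cells. The share of positive cells was 25.7% (17.8 to 34.9) in old tumour, 24.0% (14.9 to 35.3) in old sham, 31.7% (24.6 to 39.5) in young tumour and 13.8% (3.89 to 31.7) in young sham, and all 4 intervals overlap. Its level was 3.12 times as high in young tumour as in young sham (1.40 to 8.63) and 0.495 times as high in old tumour as in young tumour (0.330 to 0.724). Both calls ended when cells were thinned, at 1.92 and 0.695. Old tumour against old sham stood at 0.942 (0.527 to 1.73).

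Nkg7 was the most even of the 10 genes over the libraries. It was found in 98.2% of CD8 T cells in old tumour, 96.0% in old sham, 96.3% in young tumour and 96.6% in young sham, at 2581, 2283, 2323 and 1623 CPM. Its ratios lay between 1.11 (old against young tumour) and 1.43 (young tumour against young sham). In young tumour against young sham it passed 1.5-fold with the mean over cells (1.64) and after thinning (1.93).

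Ifng had 69 UMIs in old tumour, 54 in old sham, 322 in young tumour and 6 in young sham CD8 T cells. Positive cells made up 24.8% (17 to 34.0) in old tumour, 36.0% (25.2 to 47.9) in old sham, 37.9% (30.4 to 45.9) in young tumour and 17.2% (5.85 to 35.8) in young sham. Young tumour stood at 7.07 times young sham (3.21 to 19.4), whereas old tumour stood at 0.708 of old sham (0.489 to 1.03). Divided by each other, the tumour contrasts of old and young mice gave 0.100 (0.0415 to 0.242). Between ages, old sham was 4.42 times as high as young sham (1.90 to 12.6) and old tumour was 0.443 of young tumour (0.337 to 0.576). Of the 322 young tumour UMIs, 111 came from a single cell. Thinned to 1000 UMIs per cell, old against young tumour was 0.653 with an interval that reached 1.

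Ccl5 was the most abundant of the 10 genes, at 9717 CPM in old tumour, 8741 in old sham, 5567 in young tumour and 4239 in young sham CD8 T cells. Its positive cells made up 95.4% (89.6 to 98.5) in old tumour, 97.3% (90.7 to 99.7) in old sham, 84.5% (77.9 to 89.7) in young tumour and 69.0% (49.2 to 84.7) in young sham. Cells with at least 5 UMIs made up 93.6%, 94.7%, 69.6% and 69.0% in the same order, so the young libraries were alike by that count. Old sham stood at 2.06 times young sham (1.89 to 2.26) and old tumour at 1.75 times young tumour (1.68 to 1.81). The second of these fell under 1.5-fold as a mean over cells (1.19) and after thinning (1.14). The tumour contrasts stood at 1.11 in old and 1.31 in young mice. In young mice that ratio was 2.06 as a mean over cells and 2.42 after thinning.

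Fasl, the ligand of the death receptor Fas, had 27 UMIs in old tumour, 33 in old sham, 56 in young tumour and 0 in young sham CD8 T cells. It was found in 19.3% (12.3 to 27.9) of cells in old tumour, 32.0% (21.7 to 43.8) in old sham, 29.2% (22.3 to 36.9) in young tumour and 0 of 29 in young sham. Its level in old tumour was 0.453 of old sham (0.262 to 0.778), which was no longer called after thinning at 0.582. Young tumour was at least 2.46-fold and old sham at least 5.4-fold higher than young sham. Neither was called after thinning, which cannot test these bounds. Young sham had 0 Fasl UMIs, and its smaller UMI total after thinning raised the level at which that 0 was set. The loss of these calls is therefore not read as a result for Fasl.

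Klrd1 encodes CD94, which pairs with NKG2 receptors on NK cells and activated CD8 T cells. CD8 T cells had 115 UMIs in old tumour, 32 in old sham, 592 in young tumour and 25 in young sham. The share of positive cells was 45.9% (36.3 to 55.7) in old tumour, 28.0% (18.2 to 39.6) in old sham, 75.2% (67.7 to 81.6) in young tumour and 48.3% (29.4 to 67.5) in young sham. Klrd1 and Gzma were called higher with tumour at both ages. Gzma rested on 1 and 0 UMIs in the sham libraries, and its call in young mice ended without the highest cell. Old tumour stood at 1.99 times old sham (1.34 to 3.05) and young tumour at 3.12 times young sham (2.09 to 4.86). The quotient of the tumour contrasts, old over young, was 0.639 (0.365 to 1.12). Old tumour stood at 0.402 of young tumour (0.326 to 0.491), and at 16.5% against 41.5% positive cells after thinning. Klrg1, a receptor of terminally differentiated effector cells, was close to absent, with 3, 0, 4 and 0 UMIs in old tumour, old sham, young tumour and young sham CD8 T cells.

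A gene was called higher or lower where its CPM ratio was at least 1.5 in either direction and the interval excluded 1. In old tumour against old sham 3 of the 10 genes were called in CD8 T cells, Gzma and Klrd1 higher and Fasl lower, beside 7.39% of the 6697 genes with at least 10 UMIs (3.17% higher and 4.23% lower). In young tumour against young sham 6 were called, all higher, beside 9.17% of 8202 genes (5.54% higher and 3.63% lower). They were Gzma, Gzmb, Prf1, Ifng, Fasl and Klrd1. In old sham against young sham 5 were called, all higher, beside 10.6% of 4773 genes (6.29% higher and 4.29% lower). They were Gzmb, Gzmk, Ifng, Ccl5 and Fasl. In old tumour against young tumour 7 were called beside 17.9% of 8925 genes (5.48% higher and 12.5% lower), with Gzma, Gzmk and Ccl5 higher and Gzmb, Prf1, Ifng and Klrd1 lower. After thinning 3 of these 7 were called, Gzma, Gzmk and Klrd1. The comparisons share libraries. The median log2 ratio of the 10 genes, over those with at least 10 UMIs, was 0.15, 1.30, 1.56 and -0.00 in the order given, against -0.06, 0.10, 0.05 and -0.13 over all genes. Bounds stand in for ratios against 0 UMIs in these medians. In the same CD8 T cells the 6 proliferation genes summed to 299 CPM in old tumour, 84.8 in old sham, 1297 in young tumour and 1236 in young sham. Cells with Mki67 or Top2a among them numbered 48 of 161 in young tumour and 4 of 29 in young sham. The part of cell cycle in these ratios was not tested. The 8 microglia check markers summed to 962 CPM in old tumour, 1211 in old sham, 706 in young tumour and 269 in young sham. CD8 T cells that carried microglia genes numbered 2 in old tumour, 1 in old sham, 10 in young tumour and 0 in young sham. Without them each of the calls above was kept. With so few cells left out, this cannot show the part of microglia RNA in the other cells, which was not tested.

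**Figure D2:**
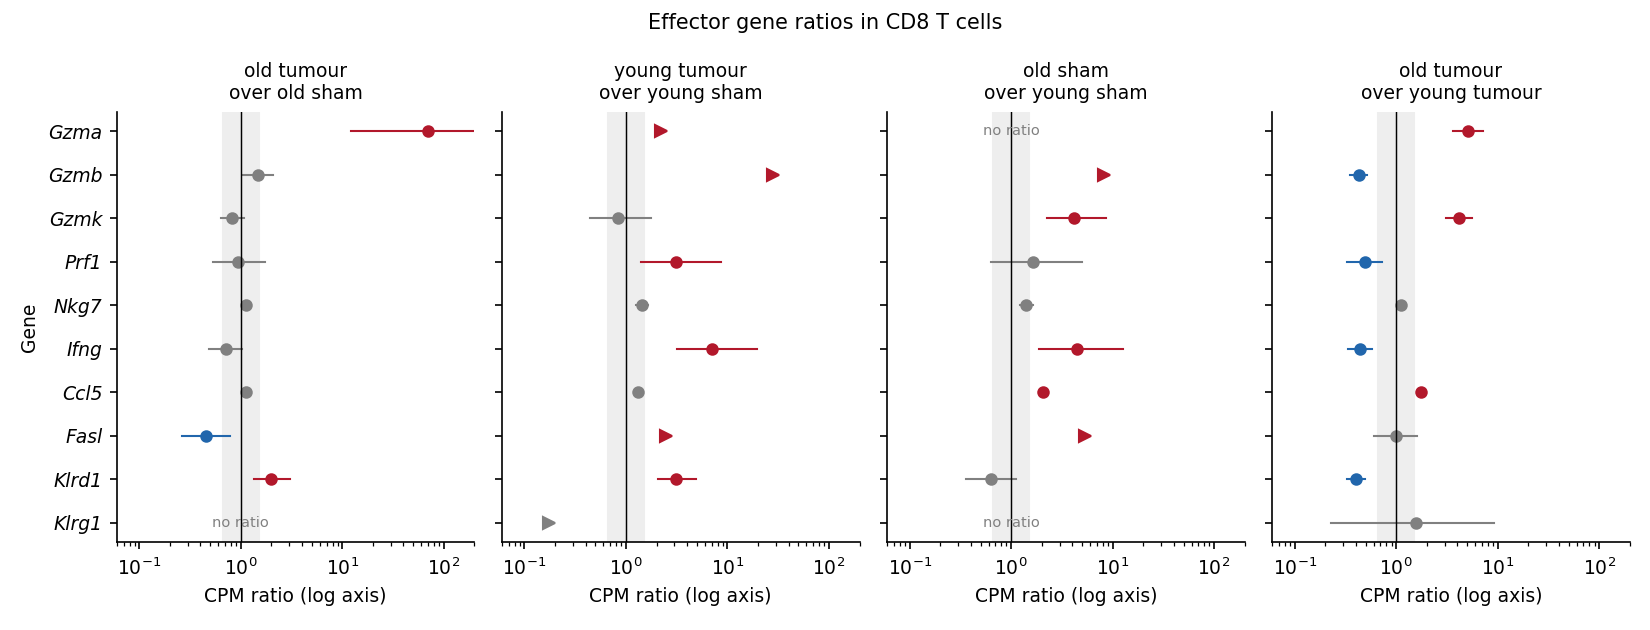
CPM ratio of each gene in CD8 T cells in the 4 comparisons (log axis), with bars for the 95% conditional interval, red for called higher, blue for called lower and grey for not called, arrowheads for lower bounds against 0 UMIs, and a grey band for ratios within 1.5-fold. The interval of Gzma in old tumour against old sham is drawn to 200 and runs to 2758. Gzmk is higher in old cells in both age comparisons (4.14 and 4.2) and near 1 in both tumour comparisons.

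Gzmb and Gzmk were read together in each CD8 T cell. In old tumour 20.2% of cells had both, 10.1% had Gzmb alone, 34.9% had Gzmk alone and 34.9% had neither. In old sham these shares were 18.7%, 13.3%, 44.0% and 24.0%. In young tumour they were 13.7%, 30.4%, 4.97% and 50.9%. In young sham 24.1% had Gzmk alone and 75.9% had neither. Cells with Gzmk alone were the more frequent kind in both old libraries, and cells with Gzmb alone were the more frequent kind in young tumour. If the genes were placed independently, 16.7%, 20.1% and 8.22% of cells would have had both in old tumour, old sham and young tumour, inside the interval of the observed share in the old libraries (13.1 to 28.9 and 10.6 to 29.3) and just under it in young tumour (8.77 to 19.95). The part that depth per cell plays in such pairs was not tested.

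Gzmb and Prf1, which act together in granule killing, were found together in 10.1% of CD8 T cells in old tumour, 12% in old sham, 23.6% in young tumour and 0 of 29 in young sham. The products of the single shares were 7.78%, 7.68% and 14% in old tumour, old sham and young tumour, and the last lay under the interval of the observed share (17.3 to 30.9). Gzmb with Ifng was found in 8.26%, 10.7% and 25.5% of cells in the same order, with a product of 16.7% in young tumour under the interval of 18.9 to 32.9. At least 5 of the 10 genes were detected in 33.9% of CD8 T cells in old tumour, 38.7% in old sham, 44.7% in young tumour and 6.90% in young sham. The median cell had 4, 4, 4 and 3 of them. Only 5 of 374 CD8 T cells had none.

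**Figure D3:**
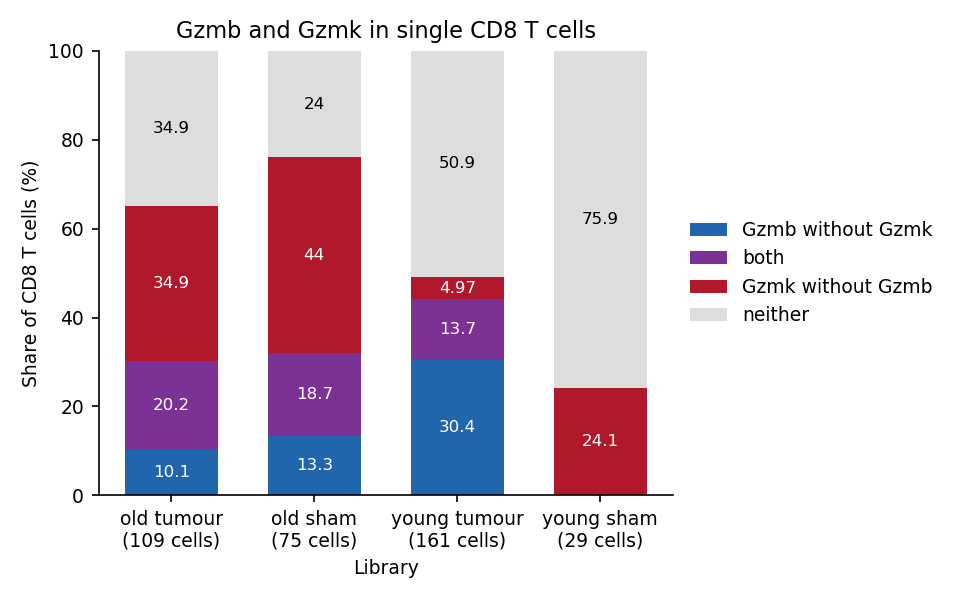
Percent of CD8 T cells of each library with UMIs of Gzmb and Gzmk together, of Gzmb alone, of Gzmk alone or of neither (stacked bars to 100%). Gzmk alone makes up 34.9% in old tumour and 44.0% in old sham, against 4.97% in young tumour and 24.1% in young sham.

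CD8 T cells were split, after their values were seen, by genes of tissue residence. Cells with a UMI of the residence genes Itgae, Itga1 or Cxcr6 made up 81.7%, 68.0%, 73.3% and 65.5% of CD8 T cells in old tumour, old sham, young tumour and young sham. Ifng was found in 27.0% of cells with and 15% of cells without the residence genes in old tumour, 35.3% and 37.5% in old sham, 44.9% and 18.6% in young tumour, and 21.1% and 10% in young sham. The intervals were apart in young tumour (35.7 to 54.3 and 8.39 to 33.4), where the median depths were 5255 and 4238 UMIs, and they overlapped in the other libraries. All 10 genes were split in this way, and in young tumour only Ifng had intervals that were apart. By CPM, old tumour cells with the residence genes were lower, at 96.8 against 323, where the second value comes from 3 positive cells of 20.

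NK cells carried a different granzyme set. No Gzmk UMI was found in any of the 74 NK cells, while the CD8 T cells of the same libraries had 140, 94, 70 and 11 UMIs in old tumour, old sham, young tumour and young sham. In 3 libraries this bounds NK at most at 0.233, 0.380 and 0.245 of CD8 (old tumour, old sham, young tumour), and in young sham the count is too low to bound it under 1. Gzma ran the other way, at 1288 CPM in NK against 235 CPM in CD8 T cells of old tumour, 5619 against 3.39 in old sham, 5054 against 46.4 in young tumour and 4757 against 0 in young sham. The ratio of NK to CD8 was 5.48 (3.98 to 7.48) in old tumour, where a single NK cell held all of the Gzma UMIs. It was 1657 (292.5 or more) in old sham, 109 (82.2 to 147.5) in young tumour and at least 229.7 in young sham. Prf1 was higher in NK in all 4 libraries, at ratios of 1.60, 5.96, 3.10 and 6.64, with an old tumour interval that holds 1 (0.488 to 4.11). Ifng was called lower in NK cells of young tumour, at 0.213 (0.109 to 0.378). With 4 libraries, the smallest p that an exact two-sided sign-flip test could give is 0.125, so no test of NK against CD8 was made.

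The 54 NK cells of young tumour give the best view of the class. Nkg7 was found in 100% of them, Ccl5 in 92.6%, Klrd1 in 87.0%, Gzma in 85.2%, Gzmb in 59.3%, Prf1 in 55.6%, Fasl in 40.7% and Ifng in 16.7%. Klrg1 had 0 UMIs, and 3 counts would allow up to 5.56% of cells with a UMI. The other libraries had 5 to 8 NK cells, and the 63 Gzma UMIs of old tumour came from 1 cell. In that library 1 of the 8 cells carried microglia genes, and the 8 microglia check markers summed to 13805 CPM in the class, against 243, 1166 and 511 CPM in old sham, young tumour and young sham. They summed to 965 CPM in the 7 old tumour cells without them.

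For NK cells, 7 of the 10 genes were called lower in old tumour than in old sham (Gzma 0.229, Gzmb 0.0511, Prf1 0.253, Nkg7 0.253, Ccl5 0.251, Fasl 0.101 and Klrd1 0.238), beside 35% of 1104 genes called in either direction (16.1% higher and 18.8% lower). Fasl, with 1 and 5 UMIs, is not among those 1104, which have at least 10. With stricter gates Gzma stood at 0.569, Nkg7 at 0.479, Ccl5 at 0.499 and Gzmb at 0.0912, and Prf1, Fasl and Klrd1 were not called. After thinning, Gzmb stood at 0.25, Gzma at 0.456 and Ccl5 at 0.588, and the same 4 genes were called. The same 7 were called lower in old tumour than in young tumour, at 0.135 (Klrd1) to 0.334 (Ccl5), beside 18.4% of 3550 genes (9.41% higher and 8.96% lower). In young tumour against young sham Gzmb (7.18, 2.77 to 26.6) and Klrd1 (1.81, 1.11 to 3.17) were called higher, beside 7.86% of 3195 genes (2.13% higher and 5.73% lower). In old sham against young sham Gzmb (25.5, 9.63 to 95.2) and Ifng (8.23, 1.10 to 365) were called higher, beside 18.8% of 759 genes (8.83% higher and 10% lower). Ifng, with 8 and 1 UMIs, is not among those 759. These values rest on 5 to 8 cells on at least 1 side. Without the cells that carried microglia genes, 5 genes were called lower in old tumour than in old sham (Gzma 0.338, Gzmb 0.0754, Nkg7 0.373, Ccl5 0.371 and Klrd1 0.351), and 6 in old tumour than in young tumour. Under the same setting young tumour against young sham had Gzmb higher (3.43) and Gzma (0.508), Nkg7 (0.661) and Ccl5 (0.322) lower, and Klrd1 stood at 0.982. Old sham against young sham had Gzmb higher (12.2) and Gzma (0.564), Nkg7 (0.614) and Ccl5 (0.428) lower.

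**Figure D4:**
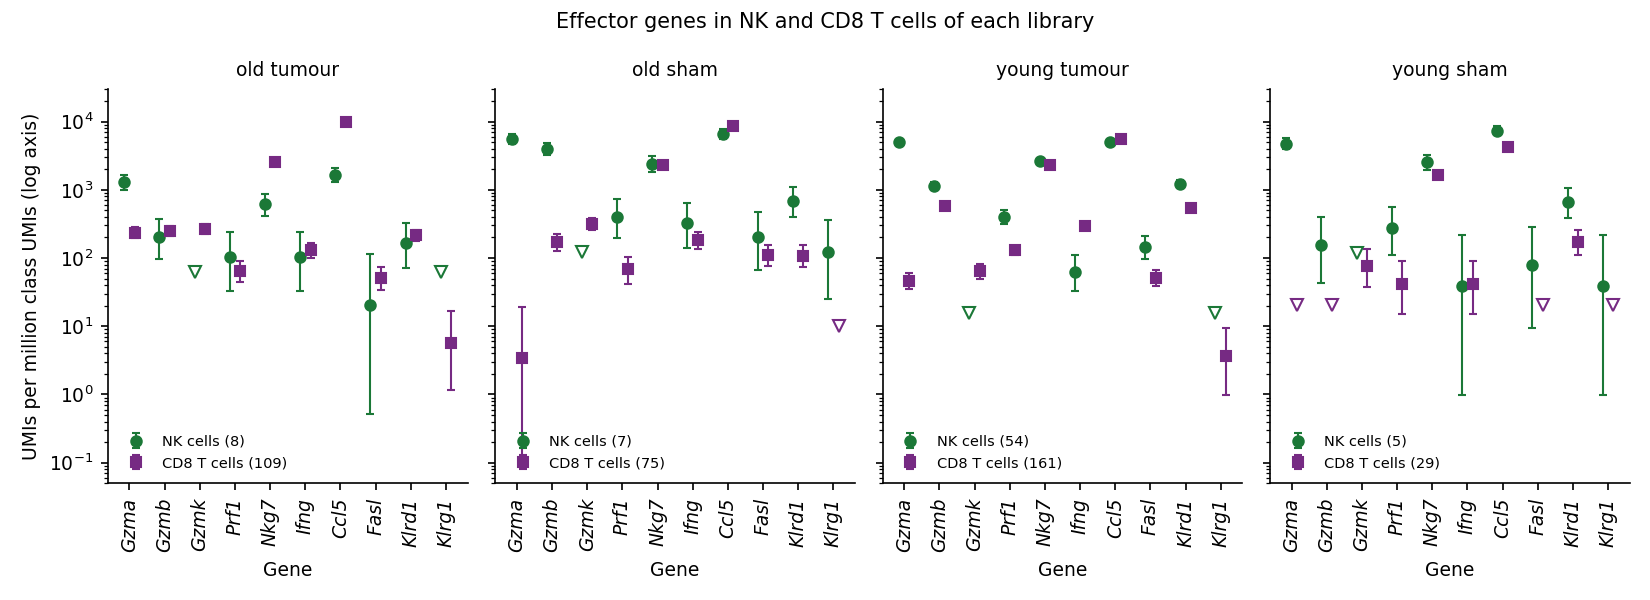
Level of each gene (CPM, log axis) in NK cells (circles, left) and CD8 T cells (squares, right) of each library, with bars for the 95% Poisson interval and open triangles for the limit of 3 counts where no UMI was found. Gzma stands above 1000 CPM in the NK cells of each library, in old tumour through a single cell, and Gzmk has UMIs in the CD8 T cells only.

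Other T cells carried part of the set. In CD4 T cells of young tumour (61 cells) Ifng was found in 26.2% and Nkg7 in 54.1%, while Prf1 and Gzma were each found in 1 cell. Gzmk was found in 6 of 13 CD4 T cells in old tumour, 1 of 6 in old sham, 6 of 61 in young tumour and 0 of 5 in young sham. T cells with neither Cd4 nor Cd8 UMIs held 13 of the 18 Klrg1 UMIs of young tumour, in 4 cells. Their Gzmb was found in 0 of 47 cells in old tumour, 3 of 24 in old sham, 19 of 112 in young tumour and 0 of 17 in young sham. Whether Cd8 RNA was present but not captured in these cells was not tested.

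Outside T and NK cells most of the 10 genes were rare. In astrocytes, which should lack them, at most 0.434% of cells had a UMI of any of them apart from Nkg7 and Ccl5, at median depths of 3483 to 4116 UMIs. Nkg7 reached 0.135%, 0.364%, 1.35% and 0.114% of astrocytes in old tumour, old sham, young tumour and young sham. Ccl5 reached 0.676%, 0.260%, 11.3% and 0.341% of them in the same order, so single Ccl5 UMIs were more widespread in young tumour. Among the other immune cells, Klrd1, Ccl5 and, in a few cells, Nkg7 were found. Nkg7 had 93 UMIs in the 127 neutrophils of young sham, from 4 cells, 31 in its 56 monocytes and 56 in its 171 B cells. Klrd1 was found in 18.3% of dendritic cells in old tumour, 24.3% in old sham, 35.8% in young tumour and 48.8% in young sham, at median depths of 5536 to 7851 UMIs. It was also found in 21% of monocytes of young tumour, against 6.06%, 2.78% and 3.57% in old tumour, old sham and young sham.

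In young tumour most Ccl5 UMIs lay outside CD8 T cells. CD8 T cells held 82.9%, 84.4% and 64.9% of the Ccl5 UMIs of old tumour, old sham and young sham, but 13.9% of the 44162 in young tumour. In that library at least 5 UMIs were found in 44.6% of dendritic cells (37.7 to 51.7), 44.6% of monocytes (38.6 to 50.6), 25.5% of B cells and 10.8% of border-associated macrophages. In the other 3 libraries such cells made up 0% to 4.05% of dendritic cells, 0% to 1.79% of monocytes and 0% of B cells and border-associated macrophages. The lymphocyte gene Nkg7 did not go along. The monocytes had 13 Nkg7 UMIs beside 5852 Ccl5 UMIs and the B cells 1 beside 2572, whereas CD8 T cells of the same library had 2555 beside 6124.

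The young tumour library also held 431 cells with at least 2 UMIs of Hmga2, a chromatin protein gene silent in most adult tissue, against 0, 1 and 0 in old tumour, old sham and young sham. What these cells are was not determined, and the presence of such cells and tumour in a young mouse cannot be told apart with 1 library. The split by Hmga2 was chosen after the values were seen. Among astrocyte-gated cells of young tumour, 60.4% of the 106 with Hmga2 had at least 5 Ccl5 UMIs, and 0.0508% of the 1968 without it did. For endothelial cells these shares were 63.6% of 22 and 0% of 1116. For cells that met no gate they were 60.8% of 217 and 1.48% of 1283, and those 217 cells held 5478 Ccl5 UMIs. Among the 64 microglia-gated cells with Hmga2 the share was 62.5%. Microglia without Hmga2 had such counts in 3.97% of 3095 cells (3.31 to 4.72), against 0.360%, 0.0790% and 0.132% of all microglia in old tumour, old sham and young sham. Monocytes and dendritic cells without Hmga2 stayed at 44.6% and 43.5%. At least 1 Ccl5 UMI was still found in 7.47% of astrocytes and 7.80% of endothelial cells without Hmga2 in young tumour.

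**Figure D5:**
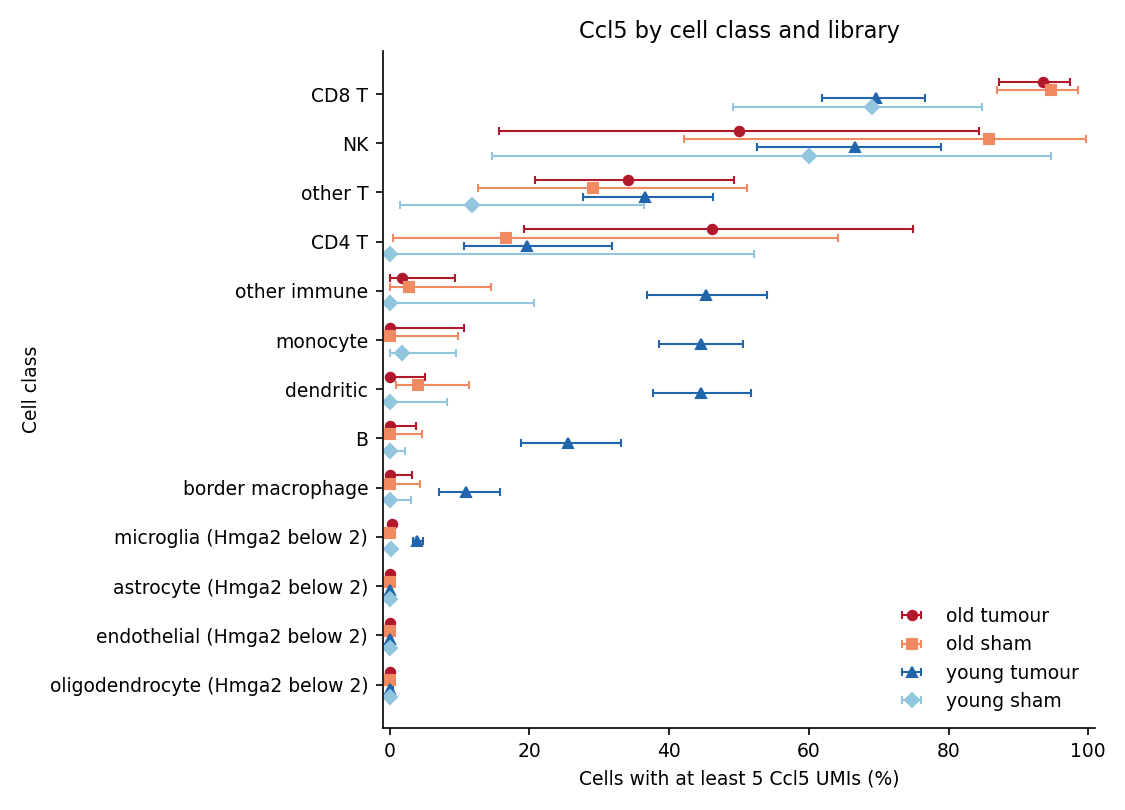
Percent of cells with at least 5 Ccl5 UMIs by cell class and library, with 95% Clopper-Pearson intervals and with microglia, astrocytes, endothelial cells and oligodendrocytes shown without the cells that had at least 2 Hmga2 UMIs. Dendritic cells and monocytes of young tumour stand at 44.6%, against at most 4.05% in the other libraries, and CD8 T cells stand at 69.0% or more in each library.

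Other genes of the cytotoxic pathway were counted in CD8 T cells from lists that do not include the 10. Near-identical copies exist in the Klra and granzyme C to N families, so reads could be split among them. The share of all genes called is given in parentheses. Of the other granule genes with at least 10 UMIs, 1 of 13 was called (7.39% of all genes), higher, in old tumour against old sham, and 5 of 13 (9.17%), all higher, in young tumour against young sham. In old sham against young sham none of 10 was called (10.6%), and in old tumour against young tumour 2 of 14 were called higher (5.48%) and 4 lower (12.5%). Gzmc, another granzyme, had 67 UMIs in old tumour and 0 in old sham, at least 12.4-fold. Srgn, which encodes the granule proteoglycan serglycin, stood at 2.26 in young tumour against young sham (1.77 to 2.94). Gzmm had 23 UMIs in old tumour against 2 in young tumour.

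Of the other effector cytokines and death ligands, 1 of 6 was called lower in old tumour against old sham (4.23% of all genes) and 2 of 6 higher in young tumour against young sham (5.54%). In old sham against young sham 2 of 5 were called higher (6.29%), and in old tumour against young tumour 3 of 7 were called lower (12.5%). The chemokine Ccl4 was among the called genes in all 4, at 0.396, 9.58, 11.9 and 0.490 in that order, and its directions were those of Fasl in the first 3 and of Ifng in the last 3. Of the killer lectin-like receptors, 4 of 6 were called higher in old tumour against old sham (3.17%) and 3 of 8 in young tumour against young sham (5.54%), with Klre1 at 2.69 and 7.59. In old sham against young sham 1 of 4 was called lower (4.29%), Klrc1 at 0.223. In old tumour against young tumour 1 of 9 was called higher (5.48%) and 5 lower (12.5%), Klre1 at 0.406 among them.

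Of the 8 effector transcription factors, 1 was called in old tumour against old sham (7.39%), Bhlhe40 at 0.497, and none in young tumour against young sham (9.17%). In old sham against young sham 2 were called (10.6%), Bhlhe40 at 2.13 and Id2 at 1.70. In old tumour against young tumour 1 was called (17.9%), Eomes at 5.23 (2.92 to 9.78), which encodes eomesodermin. The single calls are near the shares of all genes. Of the circulation and naive or memory genes, 6 of 7 were called lower in young tumour against young sham (3.63%), such as Klf2 at 0.198 and Ccr7 at 0.179, and 4 of 7 lower in old sham against young sham (4.29%). None of 7 was called in old tumour against old sham (7.39%), and 3 of 7 were called higher in old tumour against young tumour (5.48%). Tissue residence genes were called higher in 4 of 7 cases in old tumour against young tumour (5.48%), with Itgae at 4.70. Their counts were 1 higher and 1 lower of 7 in old tumour against old sham (7.39%), 1 higher of 7 in young tumour against young sham (5.54%) and 2 higher of 6 in old sham against young sham (6.29%).

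The genes whose pattern was most like the sum of the 10 were ranked by Pearson's r of log2(CPM + 1) over 36 points, each an immune class of at least 20 cells in a library, among 12164 genes. H2-T22 (0.890), H2-Q7 (0.857), Fyn (0.856), Serpina3g (0.852), F2r (0.837), Psmb8 (0.836), Gm12216 (0.831), Klrk1 (0.827), Cish (0.826) and Lsm4 (0.823) came first. H2-T22 and H2-Q7 encode non-classical or related MHC class I molecules, Fyn a kinase of T cell receptor signalling, Psmb8 an immunoproteasome subunit and Klrk1 the NKG2D receptor. Ccl5 had more UMIs than the other genes of the sum together in CD8 T cells of each library, so the sum is weighted towards Ccl5. The points share libraries and depth, so the r values are a description.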

How the data were processed

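Cells from 4 brain samples were profiled by droplet-based 3' single-cell RNA sequencing. The deposited matrices hold counts (whole UMIs per gene and barcode, not normalized). The submitters' processing notes name Cell Ranger 3.0.2, Seurat 2.3.4 and mm10, per the labels, whereas the file headers name Cell Ranger 6.1.0, and the difference was not resolved. Groups follow the labels. The 10 genes, the gene lists and the tests were chosen with earlier results of these data known. The splits by Hmga2 and by CD8 T cell subset, the motifs, the promoters shown and the settings that leave out shared barcodes or the highest cell were chosen after the values were seen.

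The filter took barcodes of 500 UMIs or more and 200 genes or more, with a mitochondrial share of up to 20% (44503 of 46097). Scrublet (scanpy 1.11.5) scores were computed per library and the highest 0.8% per 1000 barcodes removed (4113 cells, 9.24%), which left 40390 with 62726818 to 76652484 UMIs per library before filters. No cell annotation was used, so classes came from ordered gates on UMIs of marker genes, which can differ from those of the study. CPM is the sum of a gene's UMIs in a class of a library over that of all genes. A ratio compares 1 library with 1 library. Shares carry exact Clopper-Pearson intervals, levels exact Poisson intervals and ratios exact conditional intervals (scipy 1.17.1), at 95% and for counting error only. A count of 0 was set to 3 counts over the class of a library, which gives a bound, and no ratio was formed where both sides were at or under that floor. Genes with at least 10 UMIs over the compared libraries gave the background of calls. All 10 genes are named. From the other lists the text names some of the called genes with the 4 largest ratios per list and comparison. The procedure was tested on simulated Poisson counts with known changes. Those counts follow the model that the intervals assume, so that test does not cover UMIs concentrated in few cells. Positions are those of GENCODE release 21, in which 32158 gene identifiers (99.6%) were found, and promoters are those of RefSeq. A further split of CD8 T cells is not reported here.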

Additional observations from a re-analysis of the deposited data

Results flagged for a closer look

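Ratios that were called in opposite directions under the same contrast at the 2 ages or in the 2 treatments are given here. The differences were not tested. With 1 library per group, the difference between single libraries and either contrast cannot be told apart.

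Fasl in CD8 T cells stood at 0.453 in old tumour against old sham and at least 2.46 in young tumour against young sham. After thinning neither was called, and the bound in young mice is weak there because young sham had 0 Fasl UMIs. Gzmb in CD8 T cells stood at 0.428 in old tumour against young tumour and at least 8.19 in old sham against young sham. Ifng in CD8 T cells stood at 0.443 in old tumour against young tumour and 4.42 in old sham against young sham. The ratio of these ratios, which equals that of the tumour contrasts, was 0.100 (0.0415 to 0.242, an interval for counting error over 4 single libraries and no test). After thinning, neither Gzmb nor Ifng was called in old tumour against young tumour. In young tumour a single cell held a large part of the Gzmb UMIs, and a single cell held a large part of the Ifng UMIs.

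Gzmb in NK cells stood at 0.0511 in old tumour against old sham and 7.18 in young tumour against young sham. For Klrd1 in NK cells the same contrasts gave 0.238 and 1.81. That opposition ended in other settings. The young ratio was 0.982 without the cells that carried microglia genes, and not called at 1.34 without doublet removal and 1.56 after thinning, and the old ratio was not called at 0.477 with stricter gates. Gzmb in NK cells also stood at 0.181 in old tumour against young tumour and 25.5 in old sham against young sham. The NK values rest on 8, 7, 54 and 5 cells in old tumour, old sham, young tumour and young sham.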

How the results depend on the processing

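The 11 other settings, 9 planned and 2 added, were other quality limits, no doublet removal, stricter gates, cells with microglia genes left out, thinning to 1000 UMIs, the mean over cells, median centring, totals without mitochondrial and ribosomal genes, genes with at least 10 UMIs only, and shared barcodes or the highest cell left out. In CD8 T cells, 43 counts of called genes stayed within 1.5 times and 1 moved, to 3 from 7 for old tumour against young tumour after thinning. A count that stayed could still hold other genes or directions. Old sham against young sham gave 5 higher and 1 lower without doublet removal (5 higher). Old tumour against old sham gave 2 higher and 2 lower without the highest cell (2 and 1). Young tumour against young sham gave 5 after thinning (6). Prf1 and Fasl were then not called, while Nkg7 and Ccl5 passed 1.5-fold. In NK cells, the count for old tumour against old sham was 4 with stricter gates and 4 after thinning (7 otherwise reported), and that for old tumour against young tumour was 3 after thinning (7). Without cells that carry microglia genes, young tumour against young sham and old sham against young sham each gave 4, of which 1 was higher and 3 lower (2, both higher). Directions in NK cells also changed where the count stayed within 1.5 times. Young tumour against young sham gave 1 higher and 1 lower without doublet removal, after thinning and with the mean over cells. With stricter gates and with shared barcodes left out it gave 2 higher and 1 lower. After thinning, old sham against young sham gave 1 higher and 1 lower. Old sham against young sham gave 1 with 10-UMI genes only, with shared barcodes left out and without the highest cell. Reversed were Klrd1 in NK cells for young tumour against young sham, 0.982 without cells that carry microglia genes, and Ifng in NK cells for old sham against young sham, 0.714 after thinning. The cause was not tested. Of single ratios, 359 stayed within their interval and 43 moved in CD8 T cells, and 299 stayed, 52 moved and 2 reversed in NK cells. No paired analysis was possible because the groups compared have 1 library each. NK and CD8 T cells, which do share libraries, were compared within them. Low counts limit Klrg1 in CD8 T and NK cells and all values of the 29 CD8 T cells of young sham.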

Other observations

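CD8 T cells with Mki67 or Top2a made up 15.6% in old tumour, 10.7% in old sham, 29.8% in young tumour and 13.8% in young sham. In young tumour, Ifng was found in 56.2% (41.2 to 70.5) of these cells and 30.1% (21.8 to 39.4) of the other CD8 T cells. The first had a median of 8654.5 UMIs and the second 4131, and the part of depth was not tested. In old sham Ifng was found in 37.5% and 35.8%. The intervals overlapped for Gzmb, at 56.2% and 38.9%, and for Gzmk, at 14.6% and 20.4%. In old tumour Gzmk was found in 70.6% of the 17 such cells and 52.2% of the others, with overlapping intervals. The subsets were chosen after the values were seen, and the cells of a library are not replicates.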
